A study of Mus musculus with 6 samples.

Results

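Neutrophils of the aged mouse lung were chosen by measured marker counts in the 6 libraries, as every cell with at least 300 genes, at least 500 unique molecular identifiers (UMIs) and at most 15% mitochondrial UMIs that held raw UMIs of S100a8 of at least 10, of Retnlg of at least 2 and of Csf3r of at least 2, and no UMI of Cdh5, Cd3e, Cd79a or F13a1. The rule found 3034 cells among 94392 barcodes, which is 3.33% of the 91156 cells that passed the quality limits. The study compared lungs of male C57BL/6 mice of 21 months in 2 groups of 3 libraries. The p16-DTR group carried p16-CreERT2, a tamoxifen-inducible Cre driven from the p16 locus, together with R26-LSL-DTR, a diphtheria toxin receptor at Rosa26 that Cre switches on. The control group carried p16-CreERT2 without the receptor, so both groups share the Cre allele, and both received tamoxifen for 5 days, then 2 weeks later diphtheria toxin for 5 days, followed by 2 weeks of recovery. Each library mixed 20000 sorted CD45- cells with 9000 CD45+ cells from the same digested lung. The fraction of leukocytes put into a library was thus set by the sort. The labels give no sign of which cells in a mouse lost or kept the receptor, and they number the samples of each group without saying that same-numbered samples belong together. The p-values measure the spread between these libraries.

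Neutrophils are short-lived granulocytes made in the bone marrow and released into blood, and the lung holds a large pool of them in its capillaries. They carry granules filled stage by stage during maturation, follow chemokines through the receptor Cxcr2, and respond to microbial products and cytokines through NF-kB, the transcription factor family that turns on Il1b, Cxcl2 and its own inhibitors. Type I interferon acts through transcription factors that bind the interferon-stimulated response element in the promoters of genes such as Isg15 and Rsad2.

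The promoters of 3 interferon response genes with the smallest unadjusted p of their list are printed because these genes, with Cxcr1, are among those of smallest p in the core of the neutrophils, the narrower gate described further on. Each is the 250 bases before the gene's start in RefSeq (GRCm38.p6), 5′ to 3′ on the gene's own strand, in lower case with matches to GAAANNGAAA, the core letters of the interferon-stimulated response element, on either strand in capitals. Isg15 (chr4:156200819-156201068, minus strand) held 3 matches, of which neighbouring ones overlap, Rsad2 (chr12:26456453-26456702, minus strand) held 1 and Ifit3 (chr19:34583279-34583528, plus strand) held 2.
Isg15: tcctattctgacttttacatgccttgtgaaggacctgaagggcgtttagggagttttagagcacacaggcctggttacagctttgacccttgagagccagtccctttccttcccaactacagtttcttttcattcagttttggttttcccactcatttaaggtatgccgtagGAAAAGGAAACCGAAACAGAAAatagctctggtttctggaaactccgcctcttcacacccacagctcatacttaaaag
Rsad2: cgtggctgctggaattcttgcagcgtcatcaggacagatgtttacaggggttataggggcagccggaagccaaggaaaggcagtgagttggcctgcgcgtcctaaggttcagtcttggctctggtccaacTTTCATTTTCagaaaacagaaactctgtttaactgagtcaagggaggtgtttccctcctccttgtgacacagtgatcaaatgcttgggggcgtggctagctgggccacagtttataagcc
Ifit3: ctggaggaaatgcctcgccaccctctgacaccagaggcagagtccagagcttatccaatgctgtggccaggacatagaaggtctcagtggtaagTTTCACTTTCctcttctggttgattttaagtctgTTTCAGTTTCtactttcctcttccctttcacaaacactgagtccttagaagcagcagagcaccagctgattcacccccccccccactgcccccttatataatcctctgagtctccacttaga
Of the 24 interferon response genes, 20 had a promoter in the table and 9 of them (45%) held the motif, namely Gbp2, Gbp5, Ifit1, Ifit3, Ifitm2, Isg15, Rsad2, Slfn5 and Stat2, against 3.46% of the 27025 genes in the table and 2.98% of its 32851 promoters. Of the other genes of small p whose promoters were searched, H2-T23 held 1 match, and Cxcr1, Slfn1, Slfn2, Cmpk2 and Xaf1 held 0. A match describes letters in this window and not a bound site.

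The promoters of Nfkbia, which encodes the NF-kB inhibitor that NF-kB itself induces, and of Cxcl2, the chemokine ligand of Cxcr2, are printed. Nfkbia is part of the sum that orders single neutrophils in the range described at the end, and Cxcl2 differs along this range. Capitals mark matches to the kB motif on either strand. Nfkbia lies on the minus strand (chr12:55492648-55492897) and Cxcl2 on the plus strand (chr5:90903649-90903898), where 2 matches on opposite strands overlap.
Nfkbia: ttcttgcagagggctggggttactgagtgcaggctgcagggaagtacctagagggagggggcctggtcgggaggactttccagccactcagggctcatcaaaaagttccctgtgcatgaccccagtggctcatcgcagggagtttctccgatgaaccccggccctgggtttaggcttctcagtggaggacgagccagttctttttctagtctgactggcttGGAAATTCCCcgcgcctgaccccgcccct
Cxcl2: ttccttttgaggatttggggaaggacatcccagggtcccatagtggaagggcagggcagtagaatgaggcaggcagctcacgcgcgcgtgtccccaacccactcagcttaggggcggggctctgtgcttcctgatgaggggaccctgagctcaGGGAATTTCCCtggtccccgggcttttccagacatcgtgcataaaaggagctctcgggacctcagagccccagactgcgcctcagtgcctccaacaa
The NF-kB subunit and feedback list has 13 genes and also holds Cd274. Of these, 10 had a promoter in the table and 6 (60%) held the motif (Nfkb2, Nfkbia, Nfkbie, Rel, Tnfaip3 and Tnip1), against 4.46% of genes and 3.90% of promoters.

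Library totals were 254200305 to 344421685 UMIs, and the neutrophils of a library summed to between 4366488 and 9935351 UMIs. The p16-DTR libraries gave 763, 473 and 539 neutrophils and the control libraries 555, 380 and 324. Any 2 libraries shared 0 or 1 neutrophil barcodes. Replicates of a group differed by more than the counting noise of independent UMIs, with a chi-square per degree of freedom of 9.49 to 13.4 over genes. UMIs of 1 cell are not independent, so this value also holds the spread between cells. Cdkn2a, the gene that encodes p16 and drives the Cre, had 15, 9 and 39 UMIs in the neutrophils of the p16-DTR libraries and 1, 0 and 0 in those of the control libraries, against 7.31, 8.70 and 7.36 plain CPM (UMIs of the gene per 1000000 UMIs) in all other cells of the p16-DTR libraries and 1.18, 2.64 and 2.88 CPM in those of the control libraries. Cdkn2a was thus higher in the libraries labelled p16-DTR, and tdTomato, a feature of the count tables, had 257 UMIs in the other cells of those libraries and 0 in the other control cells. Diphtheria toxin kills cells that carry its receptor, and the libraries labelled p16-DTR did not hold less Cdkn2a than the control libraries. Whether this bears on the labels or on the cells was not tested, and every direction is given for the libraries as labelled.

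The rule's own genes were high by construction and are described without a test, beside S100a9 and Cxcr2, which the rule did not use. S100a8 and S100a9, the subunits of calprotectin, had median plain CPM of 30670 (24241 to 34083 over the 6 libraries) and 40813 (33189 to 47029). Retnlg, a resistin-like secreted protein, had a median of 3972 CPM, Csf3r, the receptor of granulocyte colony-stimulating factor, 2120 CPM, and Cxcr2 984 CPM (899 to 1133), with a UMI in 98.5% to 99.7% of the cells of each library. Median Cxcr2 in the other cells, which include cells that passed these minima but held an excluded gene, was 16.6 CPM. At the edges of the rule, 90 cells had Retnlg at exactly 2 UMIs and 132 more would have entered at 1, 17 and 15 cells lay at and 1 below the limit of Csf3r, and 2 and 2 cells at and 1 below that of S100a8. Before the 4 exclusions 4442 cells passed. F13a1, a classical monocyte gene, removed 705 of them, Cdh5 of endothelium 620, Cd79a of B cells 304 and Cd3e of T cells 139, with overlap between them.

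The other genes with the highest ratio of neutrophil CPM to the CPM of all other cells, at no less than 50 CPM, are described without a test, since the cells were chosen on genes of the same kind. These other cells include those that passed the minima of the rule but held an excluded gene. Of 4442 cells that passed the minima, 3034 were kept as neutrophils. The part of the rest in these ratios was not tested. The median ratio over libraries was 84.9 for S100a9, the calprotectin partner of S100a8. It was 85.0 for Gm5483, 84.7 for Stfa1 and 82.7 for Stfa2l1, which are stefin A cysteine protease inhibitors of near-identical sequence whose split between copies is uncertain. It was 79.0 for Asprv1, an aspartic protease, 75.6 for Nlrp12, an inflammasome-family regulator, 73.3 for the receptor Mrgpra2b, 73.1 for the cytokine Il1f9, 69.0 for the gelatinase Mmp9 and 65.9 for the chemokine Cxcl3. The remaining 5 genes named by the same ranking were 9830107B12Rik (70.1), Wfdc21 (66.3), AC110211.1 (65.3), Cxcr2 (62.6) and Dhrs9 (60.3).

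The neutrophil gate held cells of unequal depth. Median UMIs per neutrophil were 10200, 9330 and 10999 in the p16-DTR libraries and 10927, 8934 and 10718 in the control libraries, or 10176 ± 835 against 10193 ± 1096 (SD, n = 3 each, exact permutation test, two-sided, p = 1.0). The median share of mitochondrial UMIs per library was 0.145% to 0.267%, against 1.21% to 1.55% in the other cells. Markers of nonclassical monocytes, a patrolling blood cell, were found more often in deeper cells. The share of cells with at least 3 UMIs of Adgre4, Treml4 and Ace was 4.42% below 5000 UMIs, 14.2% to 18.9% between 5000 and 15000, 43.7% between 15000 and 22000 and 76.0% above 22000, and 757 cells (25.0%) lay above 15000 UMIs. A core of 1954 cells (64.4%), chosen after this was seen, had at most 15000 UMIs and at most 2 UMIs of these 3 genes. The core made up 65.6% of the neutrophils in p16-DTR libraries and 63.2% in control libraries on average (exact permutation p = 0.7).

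**Figure D1:**
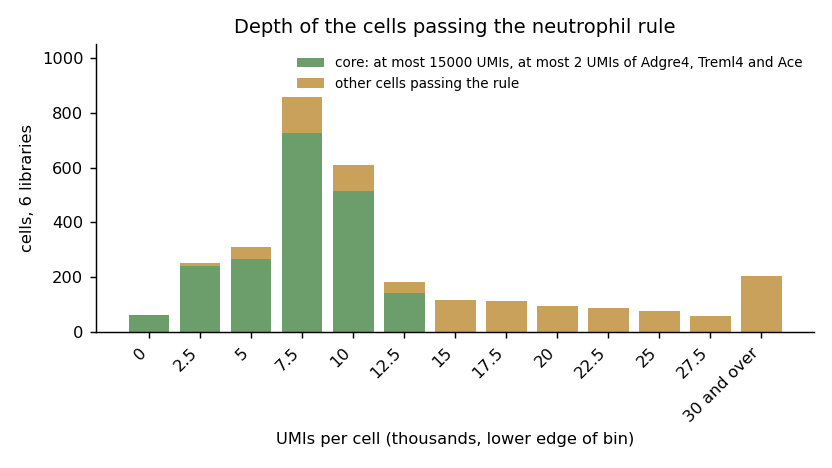
Number of neutrophils of all 6 libraries (y axis) by UMIs per cell (x axis in units of 1000 UMIs, lower edge of each bin), split into the core and the other cells that pass the rule. The core ends at 15000 UMIs, and the cells above it, 757 in number, form the right shoulder.

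The marker sums of natural killer cells, macrophages and basophils or mast cells did not overlap between the groups in the whole gate, and their part in the gene results was not tested beyond the values of the core. Natural killer cell markers (5 genes) summed to 10.2 to 61.9 CPM in p16-DTR neutrophils and 1.60 to 4.77 CPM in control neutrophils, and in the core to 2.26 to 3.94 and 0.713 to 5.23 CPM. Macrophage markers (7 genes) gave 97.0 to 210 against 9.75 to 70.1 CPM, and in the core 7.54 to 19.5 against 2.36 to 5.81 CPM, where the groups still do not overlap. Basophil or mast cell markers (5 genes) gave 2.54 to 3.42 against 1.22 to 2.06 CPM, and in the core 2.41 to 3.02 against 0.357 to 2.83 CPM. Nonclassical monocyte markers (5 genes) gave 510 to 727 against 555 to 631 CPM and in the core 34.9 to 51.3 against 36.4 to 54.3 CPM. Epithelial markers reached 1113 CPM in p16-DTR and 3090 CPM in control neutrophils, 217 to 264 and 174 to 283 CPM in the core, and mesenchymal markers 541 to 1014 against 690 to 1002 CPM, 126 to 334 and 206 to 297 CPM in the core. Of 6 eosinophil genes, Prg2, Epx and Ear6 were at 0 UMIs in these cells, while Alox15 had 44, Ccr3 80 and Siglecf 354 UMIs. The 6 genes summed to 7.30 to 14.7 CPM in p16-DTR and 7.58 to 14.4 CPM in control neutrophils. Sums of the dendritic cell, T cell, platelet and erythroid lists were at most 49.4 CPM in every library, those of B cells 60.4 to 89.1 CPM, of endothelium 80.3 to 137 CPM and of classical monocytes 107 to 201 CPM. Counts over the main lists are given for the whole gate and for the core.

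Neutrophils made up 5.17%, 3.14% and 3.51% of the retained cells of the p16-DTR libraries and 3.29%, 2.92% and 2.02% of those of the control libraries. The groups overlapped at 3.94 ± 1.08% against 2.74 ± 0.65% (SD, n = 3 each, exact permutation test, two-sided, p = 0.2). The difference of 1.20 percentage points was 0.582 without p16-DTR replicate 1, and with stricter exclusions it was 1.05 with no overlap (exact permutation p = 0.1). In the core the shares were 3.50%, 2.14% and 2.13% against 1.90%, 2.02% and 1.27%, a mean of 2.59 ± 0.79% against 1.73 ± 0.41% with no overlap, and the exact permutation p was 0.1, the smallest that 3 against 3 libraries can give. Of cells with a UMI of Ptprc, the gene of CD45, or passing the rule, neutrophils were 9.85 ± 3.47% in p16-DTR and 8.62 ± 2.58% in control libraries (n = 3 each, exact permutation p = 0.7). This last difference of 1.22 percentage points turned to -0.780 without p16-DTR replicate 1 and to -0.171 without control replicate 3. The core's share of such cells was 6.50 ± 2.52% against 5.42 ± 1.54%, with overlap (SD, n = 3 each, exact permutation p = 0.6). The sort mixed CD45- and CD45+ cells at a set ratio, so the shares over all retained cells do not measure neutrophils per lung. Cells with a UMI of Ptprc or passing the rule numbered 5507 of 14760, 6090 of 15079 and 6810 of 15361 retained cells in the p16-DTR libraries. In the control libraries they numbered 5077 of 16884, 4175 of 13025 and 5558 of 16047. The part of this in the shares over all retained cells was not tested.

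**Figure D2:**
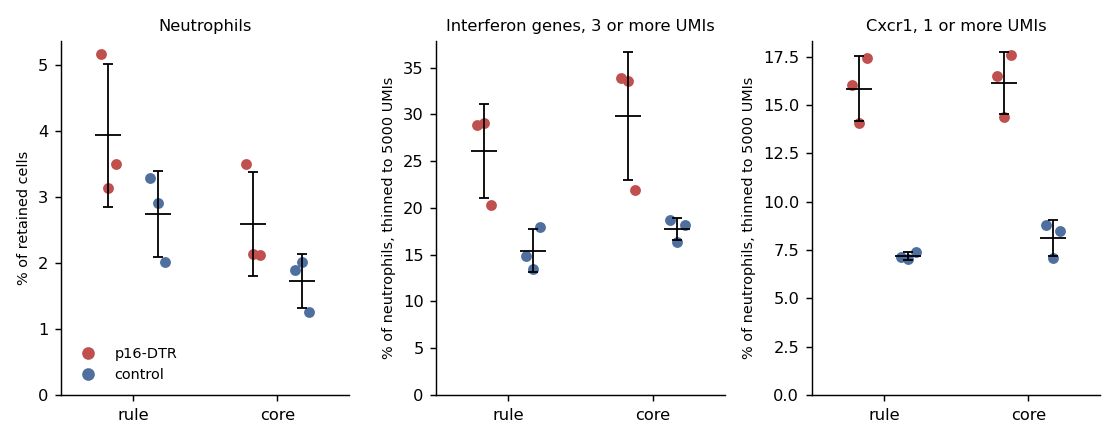
Percent of cells per library (points) with the group mean and SD (horizontal mark and error bar) for the share of neutrophils and of neutrophil states in p16-DTR and control libraries, each for the whole gate and the core. The neutrophil share of retained cells overlaps between groups in the whole gate (2.02% to 5.17%), and the interferon share does not (20.3% to 29.1% against 13.5% to 18.0%).

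The comparison of p16-DTR with control neutrophils asked which genes differ in neutrophils after diphtheria toxin in mice with the receptor. No gene of 11679 tested passed an adjusted p of 0.05 in edgeR's quasi-likelihood test with Benjamini-Hochberg adjustment (0%), and none of 7804 did in the core (0%). Without adjustment, 521 genes (4.46%) were higher and 394 (3.37%) lower at a p under 0.05 in edgeR, and 267 (3.42%) and 244 (3.13%) in the core. DESeq2 called 48 genes (0.411%), 32 of them higher, and in the core 11 (0.141%), of which 10 were higher. It called Cxcr1, Slfn1, Slfn2, Ifit3, Rsad2, Isg15 and Sla in both. Among those called in the whole gate alone were Klrb1c, Prf1 and Klre1, natural killer cell genes taken up below, whose p is no support. The values of the 3 libraries of 1 group lay all above or all below those of the other for 8.04% of the genes in the higher and 6.19% in the lower direction, and in the core for 6.46% and 5.68%. Values below are CPM scaled by edgeR's TMM factors unless called plain.

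Cxcr1, a receptor for interleukin 8 family chemokines next to Cxcr2 on chromosome 1 (74191785 to 74194631 in GRCm38, minus strand), had the smallest p of the table. It had 44.4, 34.4 and 52.7 CPM in the p16-DTR libraries and 16.1, 16.7 and 15.9 CPM in the control libraries. The control libraries lay close together and all 3 p16-DTR libraries lay above them, a log2 fold change of 1.44 (SE 0.17, edgeR adjusted p = 0.516). In the core Cxcr1 had 56.1, 39.9 and 62.1 CPM against 23.3, 21.0 and 21.2 CPM (log2 fold change 1.27, edgeR adjusted p = 0.150). After thinning each cell to 5000 UMIs, a UMI of Cxcr1 was found in 16%, 14.1% and 17.4% of p16-DTR neutrophils and 7.13%, 7.04% and 7.39% of control neutrophils. Classical monocytes, gated on F13a1, Ccr2 and Ly6c2, held 0 Cxcr1 UMIs in the p16-DTR and 1 in the control libraries. In all other cells Cxcr1 had 0.902, 0.524 and 0.725 plain CPM in p16-DTR and 0.358, 0.0843 and 0.158 plain CPM in control libraries. These other cells include those that passed the minima of the rule but held an excluded gene, and their part in this value was not tested. Without the filter on low counts, when 20595 genes enter, Cxcr1 alone was called, with an edgeR adjusted p of 0.0446 (0.00486% of genes).

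Among the 14 other genes of smallest p, those higher included 2 members of the Schlafen family, interferon-inducible regulators of leukocyte growth. Slfn1 had 424, 474 and 398 CPM against 224, 279 and 206 CPM in controls, a log2 fold change of 0.87 (SE 0.13) in the whole gate and 0.78 in the core. Slfn2 had 465, 449 and 471 CPM against 227, 340 and 249 CPM, a log2 fold change of 0.76, and in the core 0.70. Neither pair of groups overlapped. Both genes were also higher in the other cells of the lung, Slfn1 at 26.7 to 30.3 against 13.7 to 15.9 plain CPM and Slfn2 at 87.4 to 102 against 48.3 to 64.2 plain CPM. The mix of cell types among the other cells was not adjusted for in any of these values. The 2 genes lie near each other on chromosome 11 and are similar in sequence, so reads shared between them cannot be assigned with certainty.

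H2-T23, the nonclassical major histocompatibility gene Qa-1, had 215, 219 and 210 CPM against 147, 137 and 161 CPM (log2 fold change 0.53, and 0.52 in the core). Dtx3l, a ubiquitin ligase of the interferon response, had 41.5, 47.6 and 38.1 CPM against 21.5, 28.7 and 20 CPM (0.86, core 1.00). The membrane scaffold gene Mpp1 had 147, 166 and 174 CPM against 111, 115 and 113 CPM, and the kinase gene Pdpk1 80.8, 76.3 and 81.7 CPM against 54.1, 61.5 and 56.5 CPM (core 0.42 and 0.31). In each of these 4 genes every p16-DTR library exceeded every control library. The same held in the other cells of the lung for H2-T23, at 229.7 to 243 against 182 to 224 plain CPM, and for Mpp1, at 46.2 to 51.9 against 41.7 to 45.2 plain CPM. Pdpk1 differed in classical monocytes by a log2 fold change of 0.43, close to the 0.47 in neutrophils.

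Of the genes lower in p16-DTR neutrophils, Nol10, a nucleolar protein, had 85.0, 77.0 and 77.1 CPM against 123, 110 and 109 CPM (log2 fold change -0.52, core -0.54). Nol10 was also lower in the other cells, at 47.2 to 52.1 against 60.7 to 87.5 plain CPM. Alms1, a centrosomal protein, lay between 2.90 and 3.21 CPM in p16-DTR and between 7.5 and 9.88 CPM in control neutrophils (-1.49). Nbl1 (-0.99, core -0.79), A230057D06Rik (-1.16) and Xrcc5 (-2.04) also had all p16-DTR libraries below all control libraries. In the other cells Nbl1 (98.1 to 121 against 122 to 185 plain CPM), Alms1 (23.8 to 29.4 against 30.6 to 32.6) and Xrcc5 (15.6 to 17.4 against 17.6 to 21.7) were separated in the same direction. Alms1, A230057D06Rik and Xrcc5 were too low to be tested in the core.

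Klrb1c, Prf1 and Klre1, natural killer cell genes, are among the 15 genes of smallest p in the whole gate, but their counts in the control libraries were near 0 and they entered the test through the p16-DTR libraries, so their p is no support for a difference. Klrb1c had 16, 19 and 31 UMIs in 5, 1 and 4 cells of the p16-DTR libraries and 0 UMIs in the control libraries, which allows up to 0.175 plain CPM over the group. Prf1, the pore-forming protein of cytotoxic cells, had 18, 32 and 71 UMIs in 4, 1 and 6 cells against 2, 0 and 1 UMIs, and Klre1 17, 18 and 53 against 3, 1 and 1 UMIs. None of the 3 genes passed the low-count filter in the core, where the sum of natural killer cell markers overlaps between groups.

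**Figure D3:**
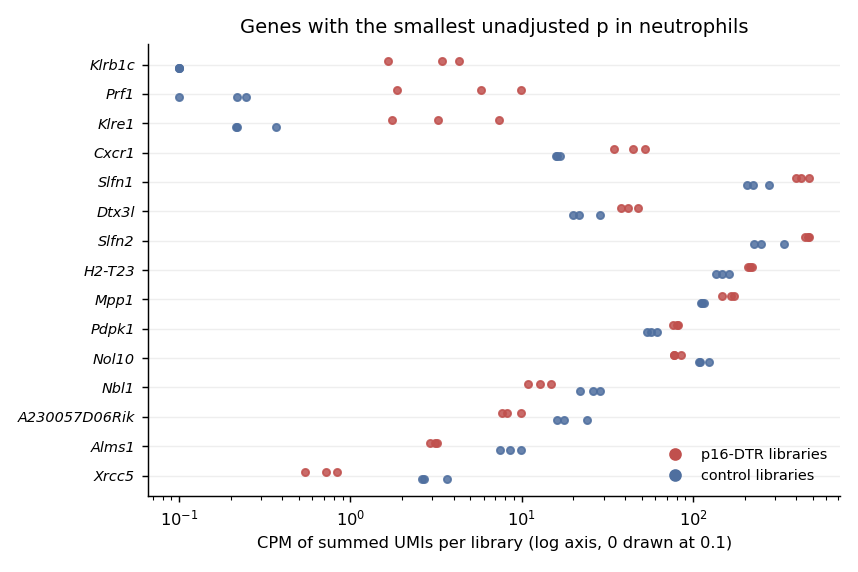
The 15 tested genes of smallest unadjusted p, each with TMM-scaled CPM of the neutrophil sum in every library (log axis, values of 0 drawn at the left edge). Cxcr1 lies at 34.4 to 52.7 CPM in p16-DTR and 15.9 to 16.7 CPM in control libraries, and Klrb1c is at 0 in all 3 control libraries.

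Most genes of the interferon response list, which was chosen with earlier results known, had higher values in p16-DTR neutrophils, and none passed adjustment in edgeR with all 6 libraries, while DESeq2 called Isg15, Rsad2, Ifit3 and Cmpk2 in the core. All 24 genes were tested, 23 had a log2 fold change above 0 and the list's median was 0.73, against -0.01 over all genes tested and 48.7% of all genes above 0. In 14 genes the p16-DTR libraries all lay above the control libraries (8.04% of all genes) and in 0 below, and 15 were higher at an unadjusted p under 0.05 in edgeR (4.46% of all genes). In the core 21 genes were tested, 9 were higher without overlap (6.46% of all genes), 10 at an unadjusted p under 0.05 (3.42%), 20 had a log2 fold change above 0 (48.9%), and the median was 0.58. Without control replicate 1 that count of 10 became 16, but the share of all genes in that fit was not worked out.

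Ifit3, which binds viral RNA together with Ifit1, had 45.7, 31.2 and 26.1 CPM in p16-DTR and 11, 3.22 and 10 CPM in control neutrophils (log2 fold change 2.06, SE 0.40, edgeR adjusted p = 0.525). Ifit3 has a near-identical neighbouring copy, so its count is uncertain to that extent. Rsad2, which encodes viperin, had 166, 132 and 96.8 CPM against 53.6, 37.3 and 70.9 CPM (1.29, SE 0.26, core 1.25). Isg15, a ubiquitin-like modifier, had 332, 339 and 221 CPM against 152, 110 and 199 CPM (0.95, SE 0.24), and in the core 440, 486 and 292 CPM against 209, 165 and 201 CPM (1.08). In all 3 genes the lowest p16-DTR library was replicate 3. The same held in the other cells, where the groups overlapped in all 3 genes. Isg15 was there at 31.0 to 45.1 against 25.1 to 31.6 plain CPM. Rsad2 was at 7.11 to 12.4 against 6.39 to 8.07 and Ifit3 at 15.8 to 22.7 against 15.7 to 16.4 plain CPM.

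Of the other members, the sensor genes Oasl2 (0.99) and Ifit1 (1.37), Slfn5 (1.31), the nucleotide kinase gene Cmpk2 (0.87), and the guanylate-binding protein gene Gbp2 (0.72) had no overlap between groups in the whole gate. In the core Oasl2 (0.85), Ifit1 (2.26) and Cmpk2 (1.44) had none, while Slfn5 (1.47) and Gbp2 (0.31) overlapped. The transcription factor gene Irf7 (0.70) overlapped there and did not in the core. Mx1 (-0.73) was the member below 0, at 0.697 to 2.90 CPM against 1.07 to 7.61 CPM. Ifitm1 and Ifitm2, the most abundant members, overlapped, with Ifitm1 at 852 to 3037 CPM among the control libraries alone.

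**Figure D4:**
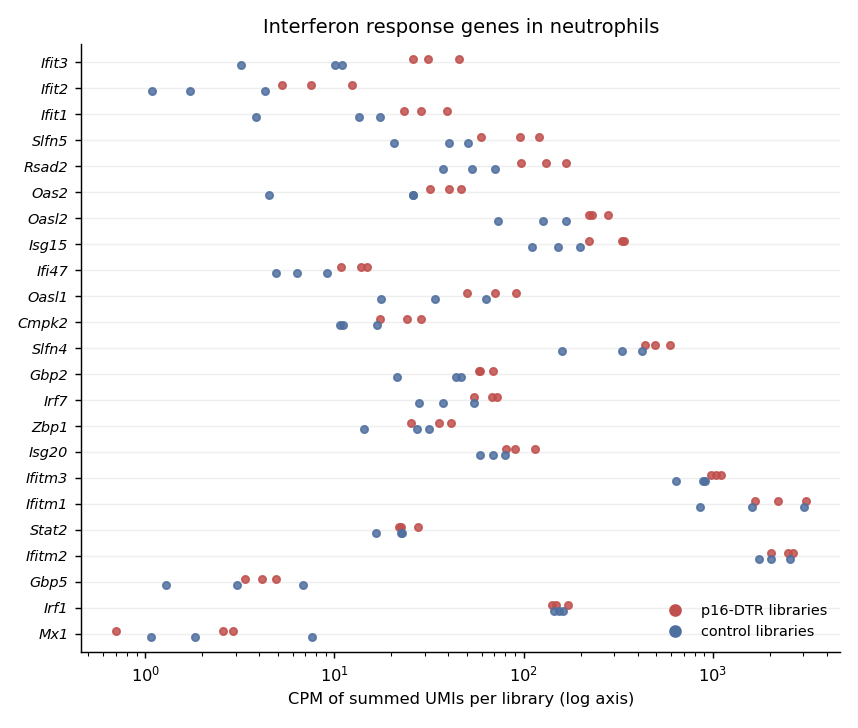
TMM-scaled CPM of genes of the interferon response list in the neutrophils of each library (log axis), with 1 point per library. In 14 of them the 3 p16-DTR points lie to the right of the 3 control points, and Mx1 is the member with the lower p16-DTR mean.

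Classical monocytes of the same libraries (2243 cells) served for comparison as another blood myeloid cell. Their interferon list had a median log2 fold change of 0.23, with 4 of 24 genes (Irf7, Oasl1, Ifitm3 and Zbp1) higher without overlap (8.68% of the monocytes' genes) 5 higher and 0 lower at an unadjusted p under 0.05 in edgeR (5.38% and 5.88%), and 18 above 0 (51.5%). The difference between the 2 cell types was tested as an interaction with the library as a block. It was called for 0 of 13279 genes in edgeR (0%), and 630 (4.74%) had an unadjusted p under 0.05. For Ifit3 the effect in neutrophils exceeded that in monocytes by a log2 difference of 1.89 (SE 0.66, edgeR adjusted p = 0.958), for Rsad2 by 1.16 (SE 0.49) and for Isg15 by 0.55 (SE 0.19).

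The interferon genes were held by a fraction of the cells. After thinning to 5000 UMIs, which left out 317 of the 3034 cells, at least 3 UMIs of Ifit1, Ifit3, Rsad2 and Isg15 together were found in 28.8%, 29.1% and 20.3% of p16-DTR neutrophils and 14.9%, 13.5% and 18.0% of control neutrophils. The means were 26.1 ± 5.02% and 15.4 ± 2.29% (SD, n = 3 each, exact permutation p = 0.1, 0.35 adjusted over 7 states). In the core the shares were 33.9%, 33.6% and 21.9% against 18.7%, 16.4% and 18.2%. This is a range and not a type, since 117 cells lay exactly at 3 UMIs and 276 at 1 below. Core cells at or above 3 UMIs, compared with core cells at 0, had a mean of 2.02 against 1.10 UMIs of Ly6e per 5000, 2.05 against 0.847 of Ifi27l2a, 2.90 against 1.81 of Slfn1 and 0.501 against 0.159 of Irf7, in the same direction in 6 of 6 libraries. Cxcr1 was not split this way, at 0.198 against 0.165 UMIs per cell and higher in 4 of 6 libraries.

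The core's own ranking added genes outside the list. Ly6e, an interferon-inducible surface protein, had 435, 380 and 321 CPM against 226, 191 and 212 CPM (log2 fold change 0.85), and was also higher in the other cells, at 786 to 885 against 569.7 to 754 plain CPM. Xaf1, an inhibitor of an apoptosis inhibitor, had a log2 fold change of 1.37 and Casp1, the inflammasome caspase, 0.81. Ifi207 is also among these genes, but it entered the test through the p16-DTR libraries, at 13.9, 15 and 5.90 CPM against 2.68, 1.34 and 1.18 CPM, so its p is no support. DESeq2's 11 core calls were Inmt, Isg15, Ly6e, Rsad2, Ifit3, Cxcr1, Slfn1, Sla, Slfn2, Cmpk2 and Gab3. Inmt, a methyltransferase abundant in lung fibroblasts, had the smallest p in the core at 65.4, 41.0 and 52.0 CPM against 121, 106 and 140 CPM (-1.19). The other cells held 1007 to 1701 against 1490 to 2264 plain CPM of Inmt, and the part that RNA from those cells has in its neutrophil value was not tested. In the core p16-DTR replicate 3 was the lowest p16-DTR library for Ifit3, Isg15 and Rsad2. Leaving out this library made edgeR call these 3 genes there, which is no further support. Leaving out control replicate 2 made edgeR call 11 genes. Of these, Limch1, which had the smallest p, Inmt, the alveolar epithelial gene Ager, Fbn1, Nav2 and Ccl4 were lower, and Fkbp5, Slfn1, Slfn2, Sla and Sgms1 were higher. These core genes were named after their values were seen.

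Receptors for chemoattractants followed, with values mostly above those of the controls. Of 12 tested, 7 were higher without overlap (8.04% of all genes), 6 at an unadjusted p under 0.05 in edgeR (4.46%), with a median log2 fold change of 0.29. In the core 4 of 11 were higher without overlap (6.46%), namely Cxcr1, Cxcr2, C5ar2 and Ccrl2, 2 had a p under 0.05 (3.42%), and the median was 0.16. Cxcr2, the main receptor for chemokines such as Cxcl1 and Cxcl2, had 1161, 1042 and 1143 CPM against 943, 870 and 902 CPM (0.30, and 0.19 in the core). Ccr1, a receptor for Ccl3, had 770, 802 and 871 CPM against 670, 646 and 679 CPM (0.29), and overlapped in the core (0.11). C5ar1, the receptor of complement C5a, had 795, 787 and 826 CPM against 747, 738 and 782 CPM (0.09, core -0.02 with overlap). The other members without overlap were Cxcr4 (0.30), Fpr2 (0.26), a formyl peptide receptor, and C5ar2 (0.33).

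The cytokine and chemokine list had members in both directions. Of its 21 genes, which include Hdc, the enzyme that makes histamine, 5 were higher (Ccl3, Cxcl3, Il1b, Tnfsf14 and Hdc) and 2 lower (Cxcl1 and Cxcl10) without overlap (8.04% and 6.19% of all genes). In the core Cxcl3 alone of 19, a ligand of Cxcr2, was higher without overlap (6.46%, log2 fold change 0.72), at 242, 273 and 258 CPM against 238, 100 and 130 CPM. Ccl3, a macrophage inflammatory protein, had 30.6, 36.6 and 70.5 CPM against 16.3, 13.7 and 17.6 CPM (1.53) and overlapped in the core. In the other cells the groups overlapped, at 62.4 to 92.5 against 22.7 to 67.6 plain CPM. Cxcl1 had 12.8, 5.43 and 14.1 CPM against 57.0, 36.4 and 15.7 CPM (-1.75), Cxcl10 1.12 to 4.17 CPM against 6.96 to 7.69 CPM (-1.27), and both overlapped in the core. In the other cells Cxcl1 was at 14.7 to 20.2 against 38.3 to 119 plain CPM. The abundant ligands Il1b and Cxcl2 had 13603, 13713 and 15483 CPM against 12176, 10521 and 13418 CPM, and 7610, 9175 and 10467 CPM against 6646, 5192 and 7768 CPM. For Il1b, the precursor of interleukin 1 beta, the groups did not overlap (0.24, edgeR unadjusted p = 0.0569), while for Cxcl2 control replicate 3 exceeded p16-DTR replicate 1 (0.48). In the core both overlapped (0.16 and 0.33).

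Genes of the NF-kB subunit and feedback list were lower where the groups separated. Of 13 tested, 4 were lower and 0 higher without overlap (6.19% and 8.04% of all genes), the same counts had an unadjusted p under 0.05 in edgeR (3.37% and 4.46%), and the median log2 fold change was -0.10. In the core 2 were lower without overlap (5.68%), 3 at a p under 0.05 (3.13%), and the median was -0.21. Nfkbie, an inhibitor of NF-kB, had 74.5, 80.6 and 64.8 CPM against 100, 87.7 and 102 CPM (-0.40, core -0.44 with overlap). Zc3h12a, a ribonuclease that degrades cytokine messages, had 137, 128 and 133 CPM against 153, 153 and 162 CPM (-0.23), Relb, a subunit, 108, 111 and 101 CPM against 121, 130 and 119 CPM (-0.21, core -0.30 with overlap), and Tnip1, which binds the inhibitor Tnfaip3, had a log2 fold change of -0.27. The members without overlap in the core were Zc3h12a (-0.30) and Tnip1 (-0.40). Nfkbia, the most abundant inhibitor of the list, overlapped at 1548 to 1797 CPM over all libraries (0.06). Classical monocytes had 3 of 13 lower without overlap (Nfkbie, Nfkb2 and Relb, 8.73% of the monocytes' genes), with Nfkbie at -0.80.

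Genes induced by glucocorticoids through the receptor Nr3c1 were higher in 7 of 12 without overlap, as many as among the chemoattractant receptors (8.04% of all genes), and lower in 1, Sgk1 (6.19%), with a median log2 fold change of 0.29. In the core 2 of 11 were higher (Fkbp5 and Tsc22d3) and 1 lower (Nr3c1) without overlap (6.46% and 5.68%), and the median was 0.15. Fkbp5, a chaperone of the glucocorticoid receptor, had 138, 95.3 and 165 CPM against 32.9, 74.6 and 59.6 CPM (1.27, and 1.09 in the core). Fkbp5 was also higher in classical monocytes (1.55) and in all other cells, at 120 to 227 against 46.8 to 98.5 plain CPM. Dusp1, a phosphatase that shuts off stress kinases, had 2519, 2805 and 2816 CPM against 1895, 1855 and 2445 CPM (0.39, core 0.27 with overlap), and Errfi1 had 83.0 to 114 CPM against 56.4 to 71.8 CPM (0.55), which overlapped in the core (0.15). Another list held genes that tissue digestion is known to induce, immediate early and heat shock genes among them. Of its 17 genes, 4 were higher without overlap (8.04%), namely Zfp36 (0.30), Fos (0.30), Junb (0.24) and Dusp1. In the core 3 of 17 were higher without overlap (Hspa1a, Hspa1b and Zfp36, 6.46%), and in classical monocytes 5 of 17 (Fos, Ier3, Dusp1, Hspa8 and Zfp36, 8.68%).

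Among granule genes, the high values of Ltf and Ngp in p16-DTR replicates 1 and 2 did not remain in the core. Of 9 secondary granule genes tested, 5 were higher at an unadjusted p under 0.05 in edgeR (4.46% of all genes), but 1 without overlap (8.04%), Anxa1 (0.34), which encodes annexin A1. Ltf, which encodes lactoferrin, had 113, 178 and 3.90 CPM against 5.25, 2.14 and 5.00 CPM, and Ngp, a granule protein of immature neutrophils, 464, 751 and 17.0 CPM against 24.9, 7.93 and 37.6 CPM. The 5 cells with the most Ltf held 96.8% and 98.0% of its UMIs in p16-DTR replicates 1 and 2. In the core Ltf was at 2.63 to 7.26 CPM in all libraries (log2 fold change -0.15) and Ngp at -0.10. The granule genes that mature cells hold at a high level overlapped: Lyz2, lysozyme, had 2107 to 3108 CPM against 1997 to 2519 CPM (0.12), and Hp, haptoglobin, 1658 to 1929 CPM against 1315 to 1698 CPM (0.27). Of 4 primary granule genes tested, the proteoglycan Srgn (0.15) and the protease activator Ctsc (0.21) were higher without overlap (8.04%), and in the core, where 3 were tested, Ctsc was (0.32, against 6.46% of all genes). Of 10 tertiary and secretory granule genes, 1 was (8.04%), the protease inhibitor Slpi, at 2067 to 2172 CPM against 1635 to 1873 CPM (0.25). That share is near the one over all genes, Slpi overlapped in the core (0.15), and there Mmp25 (-0.41) was lower without overlap (5.68%).

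Receptors that recognise microbes and antibodies were higher without overlap in 4 of 14 (Tlr13, Fcgr3, Tlr4 and Trem3, 8.04% of all genes) and in the core in Tlr13 and Fcgr3 of 13 (6.46%). Tlr13, a sensor of bacterial ribosomal RNA, had 164, 191 and 185 CPM against 128, 141 and 114 CPM (0.49, core 0.36), Fcgr3, an Fc receptor, 404, 386 and 426 CPM against 320, 291 and 338 CPM (0.36, core 0.22), and Tlr4, the endotoxin receptor, 95.8, 88.9 and 104 CPM against 83.7, 67.5 and 78.5 CPM (0.33, core 0.17 with overlap). Of 17 cytokine receptors that the rule did not use, Il1r2 and Il17ra were higher (8.04%) and Csf2ra lower (6.19%) without overlap, and in the core Csf2ra alone (-0.20) was separated (5.68%). The decoy receptor Il1r2 had 4267 to 4673 CPM against 3726 to 4007 CPM (0.23). Adhesion and migration genes gave 1 higher and 1 lower of 17, shares near those over all genes (8.04% and 6.19%), and in the core 0 higher and 3 lower (Icam1, Itgal and Cd9, 6.46% and 5.68%). Icam1, a ligand of leukocyte integrins, had 37.5, 37.1 and 30.8 CPM against 52.7, 64.3 and 47.8 CPM (-0.64, core -0.65), and Selplg, the ligand of P-selectin, 717, 674 and 810 CPM against 635, 534 and 561 CPM (0.35, core 0.23 with overlap).

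The remaining lists had few separated members, most of which are named to account for the counts. The genes named here and above only for their place in a count of separated members were chosen after their values were seen. Higher without overlap (8.04% of all genes) were 3 of 19 survival genes (Bak1, Bid and Casp8), 2 of 8 eicosanoid genes (Alox5ap and Pla2g7) and 2 of 16 transcription factor genes (Klf6 and Junb). So were 3 of 18 glycolysis and lipid genes (Pfkp, Aldoa and Pygl), Ccnd3 of 14 p53 and arrest genes and Per1 of 14 clock genes. Lower (6.19%) were Phlda3, Arntl and Npas2 of these lists. In the core 1 of 19 survival, 1 of 7 eicosanoid and 2 of 15 transcription factor genes were higher without overlap (6.46% of all genes). Of the 18 glycolysis and lipid, 11 p53 and arrest and 6 clock genes tested there, 0 were. Lower there (5.68%) were 1 survival gene and 1 of 5 proliferation genes. Of 12 NADPH oxidase and oxidative defence genes 2 were higher and 1 lower (8.04% and 6.19%), and in the core 0 and 2 of 11 (6.46% and 5.68%). The survival gene Mcl1 had 2106 to 2504 CPM against 1995 to 2106 CPM (0.14), and Pla2g7, which inactivates platelet-activating factor, 811 to 833 CPM against 669 to 726 CPM (0.24). The clock genes Npas2 (-1.69) and Arntl (-0.59) and the cold-inducible gene Cirbp (-0.26), at 37.9 to 45.2 CPM against 48.3 to 53.3 CPM, had all p16-DTR libraries below the control libraries. In the core Pla2g7 (0.16) was separated and Mcl1 (0.04) and Cirbp (-0.15) overlapped, while Npas2, Arntl and Stmn1 were not tested. Of 8 proliferation genes 1 was lower without overlap (6.19%), Stmn1, at 4.53 to 4.64 CPM against 5.65 to 9.65 CPM.

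In neutrophils Cdkn2a summed to 63 UMIs in the p16-DTR and 1 in the control libraries, or 1.51, 1.60 and 5.22 against 0.122, 0 and 0 plain CPM, and p16-DTR replicate 3 held most of it. It did not pass the low-count filter. Without the filter its edgeR adjusted p was 0.201. In the core it had 3, 1 and 14 UMIs against 0 in each control library, which allows up to 0.452 CPM over the group. After thinning, 6 of 680, 2 of 419 and 6 of 488 p16-DTR neutrophils held a UMI, a mean of 0.863 ± 0.376% (SD, n = 3), and 0 of 505, 341 and 284 control neutrophils, which allows up to 0.594%, 0.880% and 1.06% (exact permutation p = 0.1, 0.35 adjusted over 7 states). In the core the share was 0.587 ± 0.544% against 0% (SD, n = 3 each), the groups overlapped and the exact permutation p was 0.4. B cells thinned in the same way had 6.28%, 7.78% and 7.08% against 0.259%, 0.145% and 0.494%. Classical monocytes held 47, 27 and 55 against 0, 1 and 1 UMIs of Cdkn2a, or 2.98, 2.36 and 4.11 plain CPM in the p16-DTR libraries. No neutrophil held a tdTomato UMI, which allows up to 0.13 CPM in the p16-DTR group. In that group B cells held 22 (0.585 plain CPM) and classical monocytes 5 (0.123 plain CPM), and both held 0 in the control libraries. Cdkn1a, which encodes p21, had 289, 270 and 349 CPM against 321, 244 and 396 CPM (log2 fold change -0.08). Hbegf, the mouse counterpart of the human toxin receptor, had 26, 33 and 21 UMIs against 17, 6 and 15, and the groups overlapped at 2.62, 5.88 and 2.81 against 2.08, 1.37 and 3.25 plain CPM.

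The other states overlapped between groups. Cxcr4, the receptor that draws aged neutrophils back to marrow, had a UMI in 76.5 ± 1.35% of thinned p16-DTR neutrophils and 72.7 ± 8.85% of control neutrophils (exact permutation p = 0.7). Siglecf, an eosinophil receptor gene also expressed by some tissue neutrophils, was found in 4.34 ± 1.51% and 4.88 ± 1.37% (p = 0.5, exact). At least 5 UMIs of Ltf, Camp and Ngp were found in 0.798% and 0.484% of cells, a UMI of Mki67 or Top2a in 1.97% and 2.49%, and at least 5 UMIs of Il1b in 99.5% and 99.8%, with a median of 73 Il1b UMIs per 5000.

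Within a library, the genes with the most variance relative to their mean between core neutrophils were S100a9, S100a8, Retnlg and Cxcl2. They were followed by mt-Co1, Fth1, mt-Co2, mt-Co3, mt-Atp6 and Nfkbia. The minimum counts of the rule cut the ranges of S100a8 and Retnlg. This order was not adjusted for level, and a ratio of variance to mean can be larger at a higher mean. In the core, the median over libraries of mean UMIs per thinned cell was 268 for S100a9, 198 for S100a8 and 47.8 for Cxcl2. That level was 24.5 for Retnlg, 9.91 for Nfkbia and 6.41 for mt-Co1. The variance of UMIs between thinned cells, divided by the mean, had a median over 5271 genes of 1.33. For S100a9 it was 74.4 (58.2 in the core), for S100a8 60.8 (49.4), for Retnlg 33.1 (32.5), for Cxcl2 29.4 (30.5), for Il1b 18.5 (14.8), for the ferritin gene Fth1 17.2 (17.8) and for mt-Co1 16.8 (18.8). The values of Cxcl2, Fth1, Nfkbia and the 4 mitochondrial genes were higher in the core than in the whole gate. Among the genes with lower values in the core, Sftpc, the surfactant gene of alveolar type 2 cells, had 192 in the whole gate and 1.27 in the core, Sftpa1 22.5 and 1.09, the fibroblast genes Dcn and Mgp 25.3 and 0.984 and 34.1 and 6.45, Gsn 16.4 and 3.21, Cd74 of antigen-presenting cells 31.6 and 1.91, Macf1 19.4 and 11.7, and Gm42418, which overlaps ribosomal RNA, 25.7 and 15. These are medians over libraries, and in the whole gate single libraries ranged from 1.11 to 725 for Sftpc and from 1.02 to 93.9 for Sftpa1. In control replicate 2, 10536 of 11075 Sftpc UMIs lay in 1 cell.

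Core neutrophils spanned a range of NF-kB feedback genes. The 13 genes of the list summed to between 0 and 136 UMIs per thinned cell, and the cells at either end of this order were set against each other, with 41 to 109 cells at each end of a library. Their mean sums were 61.1 to 75.5 at the upper and 8.75 to 11.5 at the lower end. The list members Nfkbia (26.7 against 0.492 UMIs per cell) and Nfkbiz (13.2 against 2.37) are part of these sums. Of 1616 genes compared, 214 were higher and 242 lower at the upper end in 6 of 6 libraries. The cells of a library share their source and were ordered by these data, so the values are a description, and the genes below were chosen after their values were seen. Higher at the upper end were Cxcl2 (72.0 against 28.8 UMIs per cell), Il1b (105 against 62.1), Ccrl2, an atypical chemokine receptor (7.08 against 1.13), Nlrp3, an inflammasome sensor (6.81 against 2.70), Gadd45b (4.90 against 0.586), Ptgs2, cyclooxygenase (7.34 against 3.80), Malt1 (2.73 against 0.250), the scavenger receptor Olr1 (1.76 against 0.0959) and the phosphatase Dusp2 (1.14 against 0.0434). Lower were Il1r2 (18.9 against 29.4), S100a9 (245 against 302), S100a8 (172 against 226), the collagenase Mmp8 (1.37 against 2.78) and the ectoenzyme Nt5e (0.191 against 0.808). Cxcr2 (6.25 against 6.67) and Cebpb (27.0 against 27.9) did not differ in the same direction in all libraries. The promoters of Cxcl2 and Nfkbia printed above hold the kB motif, and 1 of the 3 promoters of Ccrl2 does, while those of Il1b and Birc3, also higher at the upper end, hold 0 matches.

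**Figure D5:**
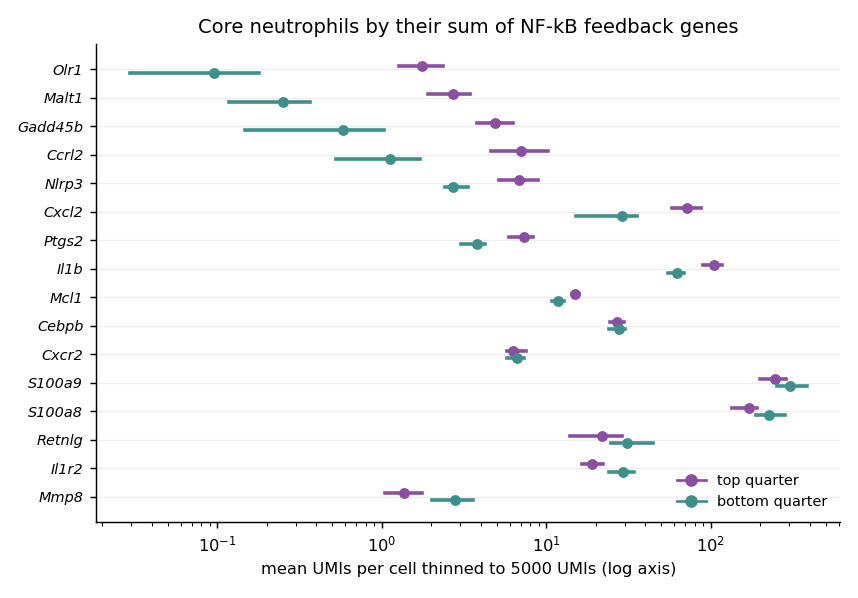
Mean UMIs per core neutrophil thinned to 5000 UMIs (log axis) at the upper and the lower end of the order of cells by their sum of NF-kB list genes (41 to 109 cells per library and end), with the mean over the 6 libraries as a point and their lowest to highest value as a line. Olr1 and Malt1 are separated most among the genes drawn, and Cxcr2 and Cebpb overlap.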

How the data were processed

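The authors deposited 10x matrices of raw counts (UMIs), made with Cell Ranger 8.0.1 on mm10 per the submitters' processing notes. How strand and multi-mapped reads were counted is not given in the sources used here. Retention limits were 300 genes, 500 UMIs and 15% mitochondrial UMIs, and the 4 excluded genes of the rule served against doublets, without a doublet caller. UMIs were summed per library and tested across the 6 libraries with edgeR 4.0.16 (R 4.3.3; TMM, filterByExpr, group as the only term, Benjamini-Hochberg at 0.05), with DESeq2 1.42.0 as an alternative. CPM were computed here, plain or scaled by TMM. The scripts were tested on simulated data. Shares were compared by exact permutation over libraries (scipy 1.17.1), where no p is under 0.1. Cells were thinned to 5000 UMIs for shares and ranges. Symbols are the files' own, and 30934 of 31054 features matched GENCODE M21 (GRCm38). The members and lists were chosen with earlier results of these data known. Named are the markers, Cdkn2a, Cdkn1a, Hbegf and tdTomato, and the 15 genes of smallest p. Drawn from each list are the 3 of smallest p and 2 of highest level. Added are the 15 highest by ratio to other cells and by variance divided by mean. Where the named genes were many, the text gives a part. The core gate was added after the data were seen. Intervals on counts of 0 cover counting error only. A few genes of the lists are not reported here.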

Additional observations from a re-analysis of the deposited data

How the results depend on the processing

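The main limits are 3 libraries a group, at which no exact permutation p is under 0.1, and neutrophils of unequal depth that carry RNA of other cells. No gene was called by edgeR with RLE factors, library size alone, stricter quality limits or exclusions, a gate without minima for S100a8 and Retnlg, without the deepest 5% of cells, or at equal cell numbers. DESeq2 called 48 genes, Klrb1c, Prf1 and Klre1 among them, and 11 in the core. The fit without a low-count filter called 1, and 2 (Dach1 and Retnla) for the difference from monocytes. Leaving out 1 library gave 0 to 1 calls (Ltf, without p16-DTR replicate 3), and 0 to 11 in the core, where the interferon genes at an unadjusted p under 0.05 numbered 10 to 16. The replicate block gave 0 calls in both, with 15 and 12 interferon genes. The shares of all genes at such a p in these fits were not worked out. These counts thus do not show a change particular to the list. Same-numbered libraries had correlations of 0.396, 0.058 and -0.176, and not every library matched its own number best, so the numbers were not taken as pairs.

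Differences are p16-DTR minus control. Leaving out 1 library gave -0.780 to 2.38 percentage points for the share of Ptprc-detected cells, -646 to 407 for median UMIs, and in percentage points -0.692 to 8.14 for Cxcr4, -1.38 to 0.249 for Siglecf and -1.20 to 0.0993 for proliferation. Median UMIs differed by 146.2 in the gate without minima, 252.8 with stricter exclusions and 348.3 in the core, and median genes by 7.5. Thinning to 2000 UMIs gave 0.420 for Il1b and 0.692 for proliferation. Proliferation was 0.194 without thinning and 0.225 in the gate without minima. The secondary granule share was -0.635 without thinning and -0.0477 in the core, where the log2 fold change was -0.15 for Ltf and -0.10 for Ngp. Of 1087 alternative fits of 70 named genes, 2 reversed, and 26 passed the threshold, 23 of them by DESeq2. Of 756 alternative levels 99 moved, 49 of them in the core. The causes were not tested.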
